A study of Arabidopsis thaliana with 12 samples.

Results

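The bins named for ath-miR159 and ath-miR319, a pair of related conserved microRNA families, were described in small RNA libraries from inflorescences of Arabidopsis thaliana. A member was any 100 bp bin whose annotation held a mature miRNA name beginning with ath-miR159 or ath-miR319 and a letter. This rule took 7 of the 152484 bins in the table: 4 for miR159 (miR159a, miR159b-3p, miR159b-5p and miR159c) and 3 for miR319 (miR319a, miR319b and miR319c). In all, 369 bins carried a miRNA name. The series held 4 groups of 3 biological replicates, all untreated and all of ecotype Col-0: the wild type, called Col-0 below, and the mutants heso1-1, urt1-1 and ntp4-1. Days of 16 h light and nights of 8 h at 22 °C were used for all plants, and RNA came from inflorescences. Each mutant was therefore 1 allele in 1 mixed tissue that holds floral organs and pollen of several stages, and in such a bulk sample fewer cells of a type and less RNA per cell cannot be told apart. The series asked how NTP4 acts on the 3p and 5p strands of miRNA duplexes. Values were RPM, reads scaled by the authors to a fixed library total.

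HESO1 and URT1 attach U residues to RNA ends, a tailing that marks miRNAs without a 3′ methyl group for decay, and NTP4 is a further nucleotidyltransferase. miR159 directs cleavage of the mRNAs of GAMYB-like transcription factors such as MYB33 and MYB65, which act in anthers, and of DUO1, a MYB regulator of sperm cell formation in pollen. miR319 acts in the same way on a subset of TCP transcription factors, among them TCP4, which limit cell proliferation in leaves and petals. The families share much of their sequence but are known for separate targets.

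The mature sequences are shown because they decide which reads can be told apart. They were read from the RefSeq annotation of TAIR10.1, 5′ to 3′, with the seed (bases 2 to 8) in capitals.
miR159a: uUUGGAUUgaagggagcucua
miR159b-3p: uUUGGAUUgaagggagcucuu
miR159c: uUUGGAUUgaagggagcuccu
miR319a: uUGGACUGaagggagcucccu
miR319b: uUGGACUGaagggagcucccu
miR319c: uUGGACUGaagggagcuccuu
miR159b-5p: gAGCUCCUugaaguucaaugg
The 3 abundant-arm miR159 sequences shared 1 seed and the 3 miR319 sequences shared another. With positions counted from the 5′ end, miR159b-3p differed from miR159a by U21A alone and from miR159c by U20C alone. miR319c differed from miR319a by U20C. The sequences of miR319a and miR319b were identical over all 21 bases, so reads of that sequence cannot be told apart by locus. Bases 2 to 21 of miR159a matched bases 1 to 20 of miR319a at 17 of 20 positions, while a register without the shift left 13 differences.

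The precursors lay on 4 of the 5 nuclear chromosomes, with coordinates from TAIR10.1 that overlapped the authors' gene listings for 98.5% of listings. MIR159a was at 1:27713233-27713416 on the minus strand and MIR159b at 1:6220646-6220841 on the plus strand. MIR159c was at 2:18994632-18994856 and MIR319c at 2:17029701-17029899, both on the plus strand. MIR319a was at 4:12352956-12353131 on the plus strand and MIR319b at 5:16660469-16660640 on the minus strand. All 6 are annotated as miRNA genes. The MIR159b precursor is given in full because it is the only member gene with a named bin for each arm, with the 5p and the 3p sequence in capitals.
MIR159b: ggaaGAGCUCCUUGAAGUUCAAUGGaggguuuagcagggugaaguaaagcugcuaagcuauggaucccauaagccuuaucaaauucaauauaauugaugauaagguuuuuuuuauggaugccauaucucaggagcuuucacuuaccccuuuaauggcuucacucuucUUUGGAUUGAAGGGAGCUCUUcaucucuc
The 5p arm fell in the bin 1:6220601-6220700 and the 3p arm in the bin 1:6220801-6220900. The bins have no strand.

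The libraries did not all look alike, whatever their group. Average-linkage clustering of 38889 bins without a miRNA name split them into 2 sets. Set A held replicate 1 of each of the 4 groups and urt1-1 replicate 3, and set B held the other 7 libraries. Pearson correlations of log2(RPM + 0.5) were 0.791 to 0.937 within sets and 0.617 to 0.885 between them. The labels name no batch. The summed RPM of miR172, a regulator of floral AP2 genes, was 9.48 to 72.7 in set A and 248 to 3662 in set B. The summed RPM of the pollen miRNA miR845 was 853 to 2854 in set A and 119 to 1670 in set B. The pollen miR2939 was 0.0899 to 5.16 RPM in set A and 0.274 to 7.24 RPM in set B. Within each group miR845 was lower in set B and miR2939 higher, so these pollen markers went opposite ways. None of the markers was at 0 in any library. The bins held 28.7% to 67.5% of the library total, lowest in ntp4-1 replicate 1, and the 11 libraries whose whole reads could be recovered had implied totals of 2761330 to 11191516 reads.

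The miR159 and miR319 bins of wild-type inflorescences differed widely in level. In Col-0, miR159a stood at 4058 ± 1072 RPM (SD, n = 3), miR159b-3p at 2623 ± 730.2, miR319c at 2454 ± 981 and miR319a at 2267 ± 483. miR159c (208 ± 122) and miR319b (208 ± 125) were about an order of magnitude lower, and the passenger-arm bin of miR159b-5p held 6.53 ± 3.44 RPM. Neighbours from miR159b-3p to miR319a, and miR159c and miR319b, did not differ beyond their spread. These are the RPM of bins of equal width. The 4 miR159 bins made up 17.8%, 20.1% and 19.0% of the RPM in all miRNA bins of the 3 Col-0 libraries, and the 3 miR319 bins 20.7%, 12.1% and 10.5%. Over all 12 libraries the miR159 share ran from 10.3% to 35.7% and the miR319 share from 2.88% to 20.7%.

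**Figure D1:**
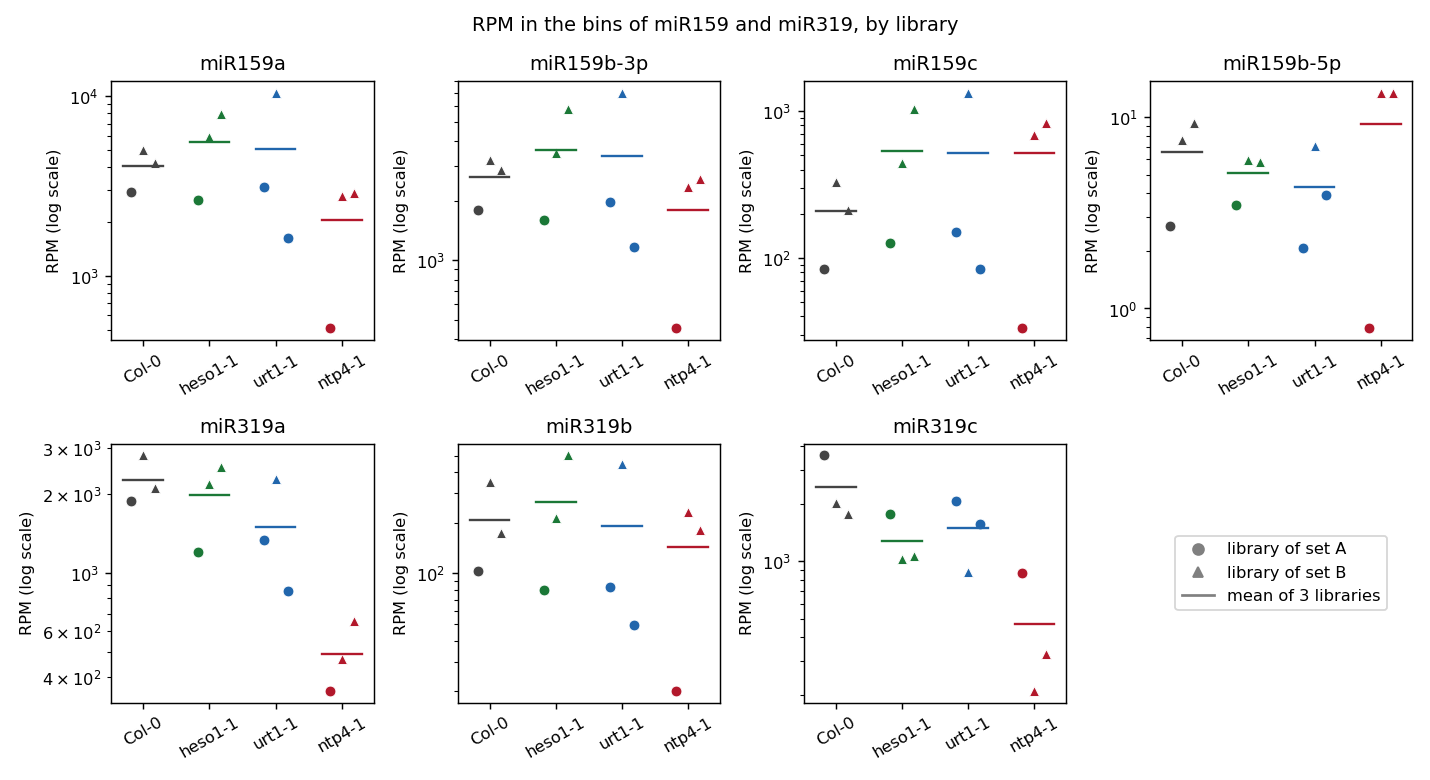
RPM (log scale) of the 7 bins in each library, by group, with circles for set A, triangles for set B and bars for the mean of 3 libraries. The 3 ntp4-1 libraries lie below the 3 Col-0 libraries for miR159a, miR319a and miR319c. Set B lies above set A within each group for every bin but miR319c, where it lies below.

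Nearly all signal of each precursor was in the bin of its mature 3p sequence. That bin held at least 99.1% of the RPM of the MIR159b bins in every library, at least 99.6% for MIR159a and at least 99.9% for MIR319c. MIR159c had no other listed bin. The share was lower for MIR319b, at 88.7% to 97.4%, and for MIR319a, at 91.2% to 99.6%. The other MIR319a bins, at 4:12352901-12353000 and 4:12353001-12353100, held 0.809 to 17.0 and 7.19 to 34.6 RPM.

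miR319a and miR319b differed in level although their mature sequences were identical. The ratio of the miR319a bin to the miR319b bin was 18.3, 8.12 and 12.1 in Col-0 and 15.2, 10.3 and 5.10 in heso1-1. It was 16.1, 5.16 and 17.3 in urt1-1 and 17.6, 2.03 and 3.60 in ntp4-1. The ratio was above 15 in all 5 libraries of set A and at or below 12.1 in all 7 of set B. How reads that match both loci were placed, and whether they were kept, is not known from the labels, so the levels of miR319a and miR319b and their sum are uncertain.

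Levels of the members also varied with the set. Within each group miR319c was lower in set B than in set A, and all other members were higher. miR159c was 33.3 to 150 RPM in set A and 212 to 1334 RPM in set B, with no overlap. As a share of miR159 it was 1.75% to 3.33% in set A and 2.89% to 13.2% in set B, which overlap. miR319c went the other way as a share of miR319, with 57.8% to 69.9% in set A and 23.1% to 43.6% in set B and no overlap, and its level was 869 to 3577 RPM in set A and 210.3 to 2018 RPM in set B. The set moves with the markers miR172 and miR845, while the pollen marker miR2939 goes the other way from miR845 within each group. The part of tissue composition, stage or handling in these differences was not tested. All 4 groups have libraries in both sets, but only urt1-1 has 2 in set A.

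**Figure D2:**
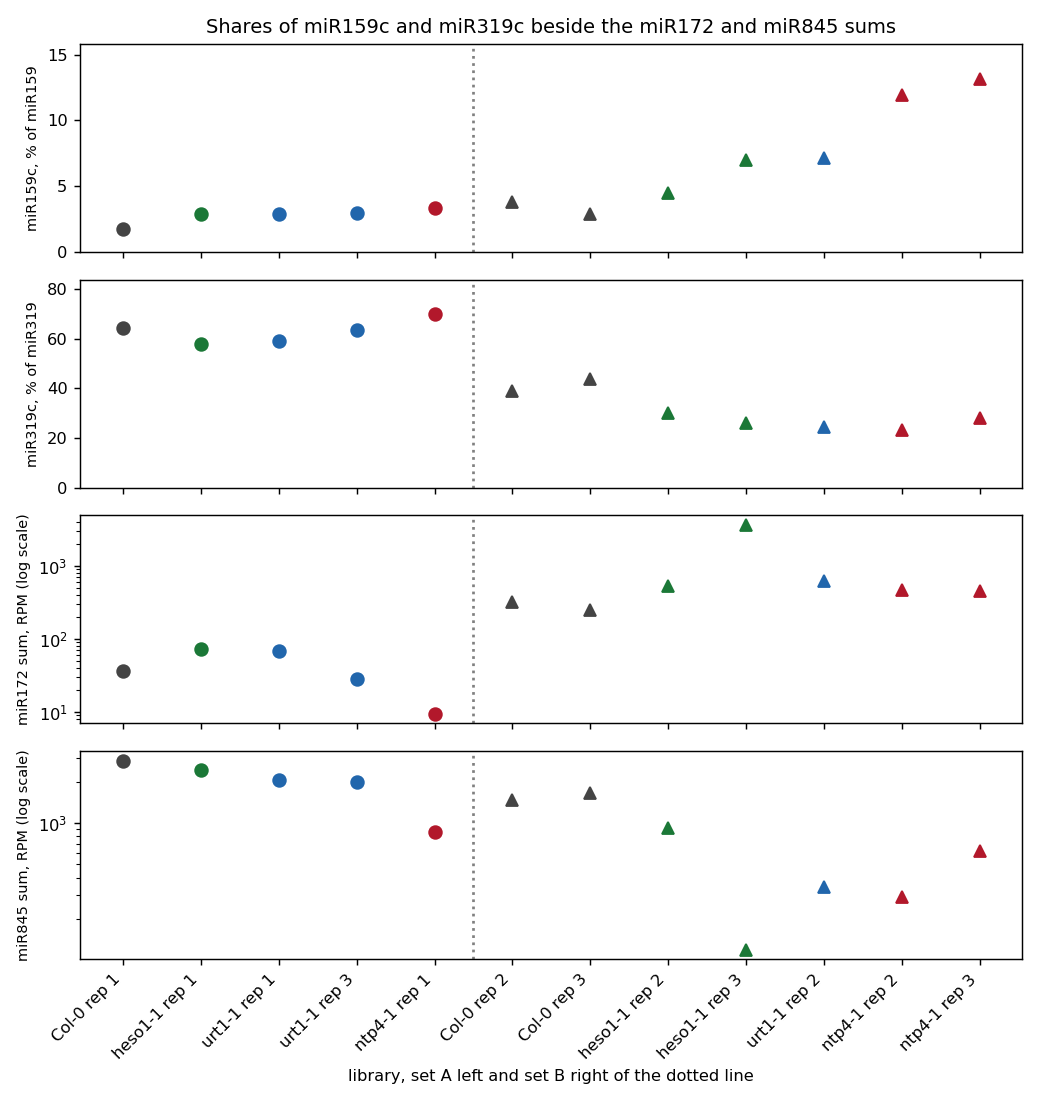
Share of miR159c in the miR159 bins, share of miR319c in the miR319 bins (both in %) and the summed RPM of miR172 and miR845 (log scales) in the 12 libraries, ordered by set and colored by group. miR319c made up 57.8% to 69.9% of miR319 left of the dotted line and 23.1% to 43.6% right of it, and the miR172 sum was below 73 RPM on the left and at least 248 RPM on the right.

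The first comparison asked whether loss of the uridylyltransferase HESO1 changed the levels. No miR159 or miR319 bin passed the test in heso1-1. Fold changes were tested with limma on log2(RPM + 0.5) over all bins with a mean of at least 1 RPM, a scale that understates changes of low bins, adjusted after Benjamini and Hochberg and read at 0.05. All 7 members were tested. With heso1-1 against Col-0, 0 of 7 members were called, beside 23 of 43648 bins (0.0527%). An unadjusted limma p under 0.05 was seen for 1 of the 7, beside 2708 of the 43648 bins. Neither edgeR nor DESeq2 on whole reads called a member. With replicate number as a block, 14 bins and none of the members were called.

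In heso1-1 the miR319c bin held 1758, 1024 and 1072 RPM in replicates 1 to 3, against 3577, 2018 and 1766 RPM in Col-0. All 3 heso1-1 values lay below all Col-0 values, the closest by a small margin. The log2 difference was −0.91 (SE 0.34, limma adjusted p = 0.775), and it was −1.02 in set A and −0.85 in set B. miR319c was the only member of the 7 whose groups did not overlap, and 12.3% of all bins tested lay below every Col-0 library in this comparison. miR159c, in contrast, had 126, 440.3 and 1028 RPM in heso1-1 where Col-0 had 84.1, 327 and 212 RPM. The ranges overlapped, with a log2 difference of 1.10 (SE 0.69, limma adjusted p = 0.795). miR159a held 2635, 5949 and 7955 RPM in heso1-1, and 2902, 5019 and 4253 RPM in the wild type. Its heso1-1 values stood on both sides of the Col-0 range, with a log2 difference of 0.34 (SE 0.38, limma adjusted p = 0.912). miR159b-3p behaved alike, with 1602, 3468 and 5774 RPM beside the wild-type values of 1804, 3206 and 2858 RPM. miR319a (1206, 2191 and 2550 RPM) and miR319b (79.2, 212 and 500.1 RPM) overlapped their Col-0 values of 1885, 2811 and 2106 RPM and of 103, 346 and 175 RPM. The median log2 difference of the 7 members was 0.15 and that of all bins tested −0.23.

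The second comparison concerned URT1, the other uridylyltransferase. No miR159 or miR319 bin passed the test in urt1-1 either. There limma called 0 of 7 members, beside 78 of 41906 bins (0.186%), and neither edgeR nor DESeq2 called a member. None of the 7 had an unadjusted limma p under 0.05, beside 2877 of the 41906 bins. miR159a stood at 3099, 10422 and 1622 RPM, and replicate 2 was the highest of all 12 libraries while replicate 3 was the lowest outside ntp4-1. miR159b-3p followed the same order, with 1970.0, 6992 and 1162 RPM. Both ranges spanned the whole Col-0 range, and the log2 differences were −0.08 (SE 0.57, limma adjusted p = 0.969) and −0.02 (SE 0.56, limma adjusted p = 0.994), with signs that turned under other scalings. miR159c held 150, 1334 and 84.7 RPM in urt1-1, with replicate 2 above the Col-0 range and the others inside it.

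Of the miR319 bins in urt1-1, miR319c held 2055, 884 and 1569 RPM and overlapped Col-0. The log2 difference was −0.72 (SE 0.38, limma adjusted p = 0.682). Since 2 of 3 urt1-1 libraries but 1 of 3 Col-0 libraries were in set A, where miR319c is higher, the set was added as a term after the data were seen. The log2 difference was then −1.04 (limma adjusted p = 0.029), with −0.99 within set A and −1.09 within set B. That fit called 1696 of 41906 bins, 1372 of them lower, and miR319c was the only member among them. miR319a had 1341, 2285 and 851 RPM, with 2 libraries below the Col-0 range and 1 inside it (log2 difference −0.70, SE 0.36, limma adjusted p = 0.682). miR319b had 83.4, 443 and 49.1 RPM, on both sides of Col-0. In urt1-1, 14.7% of all bins tested lay below every Col-0 library, and no member did. The median log2 difference was −0.53 over the members and −0.40 over all bins.

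The third comparison was that of ntp4-1 with Col-0. The 3 ntp4-1 libraries had less miR319a, miR319c and miR159a than any Col-0 library, but no member passed the test in the fit of the 6 libraries without a block or set term. With ntp4-1 against Col-0, limma called 0 of 7 members, beside 30 of 39696 bins (0.0756%), and neither edgeR nor DESeq2 called a member. An unadjusted limma p under 0.05 was seen for 2 of the 7, beside 7289 of the 39696 bins. Replicate numbers were taken as pairs in this comparison, although replicates 2 and 3 correlated about as strongly across numbers. With the number as a block 4 of 7 members were called, all of them lower. That fit called 10595 bins lower (26.7% of those tested), so that a lower call was common among all bins. With the set as a term, added after the data were seen, 4 of 7 members were called as well, again all lower. The fit with the set term called 12731 of 39696 bins lower. All bins tested had a median log2 difference of −0.75, and the members −0.95. Bins with a mean of at least 5 RPM had a median of −0.94, close to that of the members. Under trimmed-mean scaling the median of all bins was −0.33.

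miR319a held 355, 468 and 653 RPM in ntp4-1 against 1885, 2811 and 2106 RPM in Col-0. The groups were far apart, and the ntp4-1 libraries were also below the 6 libraries of the other mutants, whose lowest value was 851 RPM. The log2 difference was −2.23 (SE 0.35, limma adjusted p = 0.0706, and 2.27e-07 with the replicate block), with −2.41 in set A and −2.14 in set B. Only 1.74% of all bins tested had a lower log2 difference. It was called as well without ntp4-1 replicate 1 (−2.01, limma adjusted p = 0.00365) and in a fit on all 12 libraries (limma adjusted p = 0.0258). These fits called 2924 of 43631 and 652 of 39696 bins. Without replicate 1 the remaining ntp4-1 libraries were all of set B, while Col-0 kept a library of set A.

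miR319c held 869, 210.3 and 327 RPM in ntp4-1 against 3577, 2018 and 1766 RPM in Col-0. The groups did not overlap, and replicate 1 was the highest in both. miR319c differed by a log2 value of −2.58 (SE 0.52, limma adjusted p = 0.114, and 2.53e-08 with the replicate block), with −2.04 in set A and −2.85 in set B. Of all bins tested, 0.819% had a lower one. Without ntp4-1 replicate 1 the difference was called, at −3.15 (limma adjusted p = 0.00104), and so it was in the fit on 12 libraries (limma adjusted p = 0.0305). The former fit set ntp4-1 libraries of set B against Col-0 libraries of both sets, and miR319c is lower in set B. On whole reads, without Col-0 replicate 3, edgeR gave −1.39 for miR319a and −1.29 for miR319c, with neither called. The miR319 sum of 3 bins was 1244, 909.5 and 1161 RPM in ntp4-1 against 5565, 5175 and 4046 RPM in Col-0, with the other 6 libraries between 2469 and 4122 RPM.

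The miR159 bins did not all stand below Col-0. miR159a held 510.3, 2758 and 2875 RPM in ntp4-1, with replicates 2 and 3 close below the lowest Col-0 value of 2902 RPM and replicate 1 far below it. Its log2 difference was −1.31 (SE 0.60, limma adjusted p = 0.276, and 0.000475 with the replicate block), with −2.51 in set A and −0.71 in set B. miR159b-3p held 456, 2351 and 2566 RPM, and 2 of these lay inside the Col-0 range of 1804 to 3206 RPM. Its log2 difference was −0.86 (SE 0.60, limma adjusted p = 0.428, and 0.0154 with the replicate block), close to the median of all bins, with −1.98 in set A and −0.30 in set B. Without ntp4-1 replicate 1 it was −0.05 and did not pass. On whole reads its sign turned, to 0.08 with edgeR and 0.13 with DESeq2.

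miR159c and miR319b differed between the sets. miR159c held 33.3, 692 and 828 RPM in ntp4-1 against 84.1, 327 and 212 RPM in Col-0, so that replicate 1 was below Col-0 and the others above it. Over both sets the log2 difference was 0.57 (SE 1.09, limma adjusted p = 0.760), with −1.32 in set A and 1.52 in set B. Without ntp4-1 replicate 1 it was 2.07 and called (limma adjusted p = 0.0244), beside 2924 of 43631 bins. That fit left ntp4-1 in set B only, where miR159c is higher. miR319b held 20.1, 231 and 182 RPM against 103, 346 and 175 RPM, with −2.32 in set A and −0.26 in set B (overall −0.95, SE 0.88, limma adjusted p = 0.533, and 0.0625 with the replicate block). Of the 7 members, 3 had no overlap with Col-0 (miR159a, miR319a and miR319c), all of them lower, where 28.6% of all bins tested lay below every Col-0 library.

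Other measures were set beside the ntp4-1 group. Chloroplast bins, a sign of green tissue, held 12.1% to 13.5% of the listed RPM in ntp4-1 and 4.29% to 11.4% in the other 9 libraries. The miR845 sum was 288 to 853 RPM in ntp4-1 and 1485 to 2854 RPM in Col-0, and it was also low in heso1-1 replicate 3 (119 RPM) and urt1-1 replicate 2 (340.1 RPM). The other pollen marker, miR2939, was not lower in ntp4-1. It held 0.263, 0.608 and 1.28 RPM there and 0.0899, 0.274 and 0.804 RPM in Col-0, with overlap. The miR172 sum overlapped, at 9.48 to 476 RPM in ntp4-1 and 36.2 to 321 RPM in Col-0. Their part in the miR159 and miR319 differences was not tested. The summed RPM of the 13 bins of miR165 and miR166, conserved regulators of organ polarity, was 307 to 461 in ntp4-1 and at least 790.5 in every other library, so a low level in ntp4-1 was not limited to miR319. The summed RPM of the 15 bins of miR156 and miR157 was 82.0 to 263 in ntp4-1 and 149 to 295 in Col-0, with overlap.

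**Figure D3:**
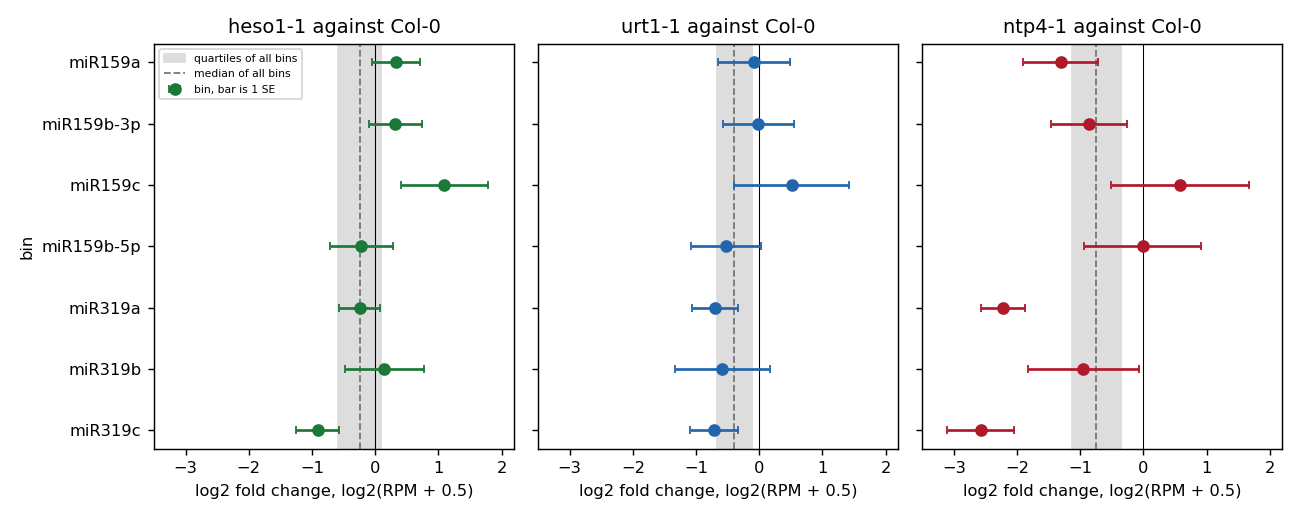
Log2 differences from Col-0 on the log2(RPM + 0.5) scale for the 7 bins in each mutant (points, bars of 1 SE), with the median (dashed line) and the quartiles (grey band) of all bins tested. miR319a (−2.23) and miR319c (−2.58) in ntp4-1 lie left of the band, whose median is −0.75.

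The strand question could be put to miR159b alone, the member gene with a bin for each arm. The 5p bin of Col-0 held 2.70, 7.55 and 9.35 RPM and that of heso1-1 3.45, 5.99 and 5.79 RPM. It held 2.06, 7.03 and 3.89 RPM in urt1-1 and 0.790, 13.4 and 13.3 RPM in ntp4-1. In the libraries with whole reads this was 6 to 73 reads, so the counting error of the ratio is mostly that of the 5p arm. Replicates 2 and 3 of ntp4-1 had the highest 5p values and replicate 1 the lowest. The ratio of 3p to 5p was 669, 425 and 306 in Col-0 and 577, 176 and 192 in ntp4-1, so that 2 ntp4-1 libraries lay below every other library and the third inside the Col-0 range. It was 464, 579 and 996 in heso1-1 and 955, 994 and 299 in urt1-1.

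Tested with limma over all miRNAs that have both arms in separate bins, the log2 ratio differed from Col-0 by −0.85 in ntp4-1 (SE 0.42, limma adjusted p = 0.278), beside 4 of 37 arm pairs called (10.8%). With the replicate block the limma adjusted p was 0.0458, beside 11 pairs called lower (29.7%). With the set as a term, added after the data were seen, the limma adjusted p was 0.0161, beside 10 of 37 pairs called lower. Without ntp4-1 replicate 1, which left ntp4-1 in set B only, the difference was −1.18 (limma adjusted p = 0.0229), beside 14 of 40 pairs called. In heso1-1 it was 0.54 (SE 0.48, limma adjusted p = 0.699, with 1 of 39 pairs, 2.56%, called) and in urt1-1 0.51 (SE 0.62, limma adjusted p = 0.774, with 0 of 38 pairs, 0%, called by limma and 3 pairs with an unadjusted p under 0.05). The 5p level itself differed by −0.01 in ntp4-1 (SE 0.93, limma adjusted p = 0.995), with −1.31 in set A and 0.64 in set B. Its direction turned under several alternatives, among them leaving out ntp4-1 replicate 1 (1.13) and edgeR (1.36), neither of which passed the test.

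The balance of miR159a and miR159b-3p, which differ only in their last base, varied little between libraries outside ntp4-1. Reads without that base match both loci, and how they were placed is not known. The ratio of the miR159a to the miR159b-3p bin was 1.61, 1.57 and 1.49 in Col-0, 1.65, 1.72 and 1.38 in heso1-1 and 1.57, 1.49 and 1.40 in urt1-1. In ntp4-1 it was 1.12, 1.17 and 1.12. All 3 ntp4-1 values lay below all 9 others, in set A and in set B alike. This ratio was taken up after the data were seen. The log2 difference of ntp4-1 from Col-0 was −0.45 (SE 0.04), and the exact two-sided permutation test gave p = 0.1, the smallest value that 3 against 3 libraries allow. In heso1-1 the difference was 0.02 (exact permutation p = 0.9) and in urt1-1 −0.07 (exact permutation p = 0.5).

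Set among all ratios of lettered genes of 1 miRNA family, the same difference had a limma adjusted p of 0.661, and limma called 0 of 119 such ratios (0%) in ntp4-1, with 13 at an unadjusted p under 0.05. It called 0 of 119 in heso1-1 and 0 of 120 in urt1-1, with 4 and 1 at an unadjusted p under 0.05. limma pools the spread over ratios, and that of miR159a to miR159b-3p was the smallest of 117, with an SD over the 12 libraries of 0.22 on the log2 scale against a median of 1.04. The ntp4-1 libraries stood apart from all 9 others in 6 of those 117 ratios (5.13%), 4 of them below. Besides miR159a to miR159b-3p these were miR166a to miR166d, miR166a to miR166g and miR5635b to miR5635d, and the named MIR166 genes are known to encode the same mature sequence.

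**Figure D4:**
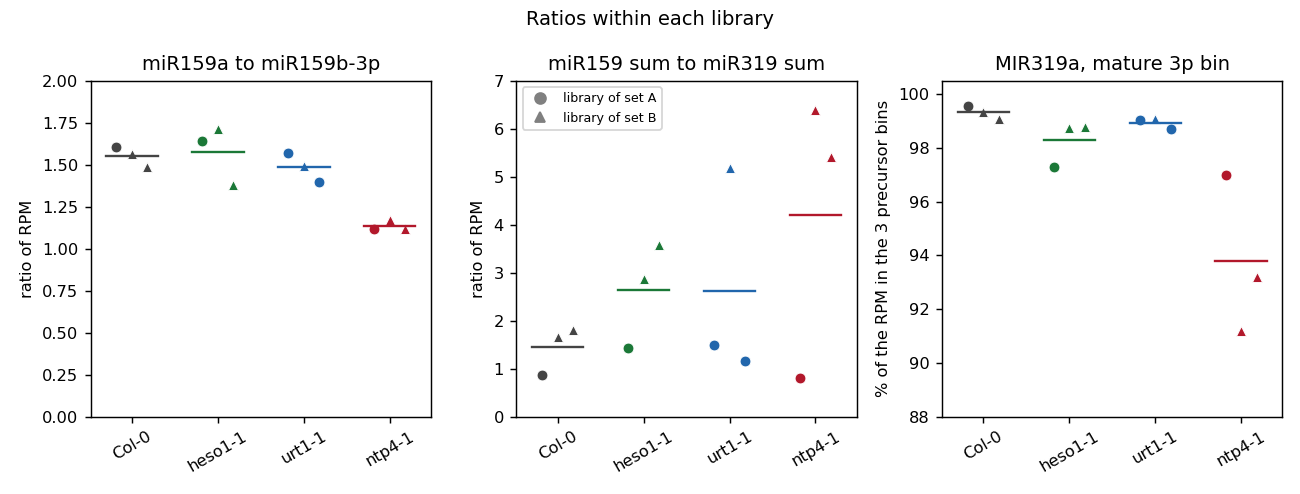
Ratio of the miR159a to the miR159b-3p bin, ratio of summed miR159 to summed miR319 RPM, and percentage of the RPM of the 3 MIR319a bins that lies in the mature 3p bin (axis from 88), per library, with circles for set A, triangles for set B and bars for the mean of 3 libraries. The 3 ntp4-1 libraries have the lowest miR159a to miR159b-3p ratios, 1.12 to 1.17, and the lowest MIR319a percentages, 91.2% to 97.0%.

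The MIR319a signal outside the mature 3p bin made up a larger share in ntp4-1, a comparison made after the data were seen and given without a test. The mature 3p bin makes up most of each precursor total. Its lower level in ntp4-1 for miR319a and miR159a therefore lowers this share by itself, and the share is not an independent result. The mature 3p bin held 99.6%, 99.3% and 99.1% of the MIR319a RPM in Col-0 and 97.0%, 91.2% and 93.2% in ntp4-1. All ntp4-1 libraries were below the other 9, whose lowest was 97.3% in heso1-1 replicate 1. The bin at 4:12353001-12353100, which holds the stretch of the precursor 5′ of the mature sequence, had 9.61, 34.6 and 31.8 RPM in ntp4-1 against 7.19, 14.0 and 15.5 RPM in Col-0, overlapping between groups (log2 difference 0.90, SE 0.64, limma adjusted p = 0.438). For MIR159a the share was 99.8%, 99.7% and 99.7% in ntp4-1, also below the other 9 libraries, and here the bin beside the mature sequence held 1.05 to 10.1 RPM in ntp4-1 and 1.16 to 3.72 RPM elsewhere. For the other precursors with a second bin the share overlapped between ntp4-1 and Col-0, at 88.7% to 96.2% against 93.6% to 97.4% for MIR319b, 99.1% to 99.8% against 99.6% to 99.9% for MIR159b and 99.90% to 99.98% against 99.97% to 99.99% for MIR319c.

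The ratio of summed miR159 to summed miR319 RPM was 0.861, 1.65 and 1.81 in Col-0. It was 1.44, 2.88 and 3.58 in heso1-1, 1.5, 5.19 and 1.16 in urt1-1 and 0.804, 6.39 and 5.41 in ntp4-1. Replicates 2 and 3 of ntp4-1 were the highest of all libraries and replicate 1 the lowest, so the groups overlapped (exact permutation p = 0.4, log2 difference 1.14, SE 1.02). All 5 libraries of set A were at or below 1.5 and all 7 of set B at or above 1.65. For heso1-1 the exact permutation p was 0.3 and for urt1-1 0.6.

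Across the 12 libraries the levels of the members were compared after the library median was taken off, with Pearson's r as a description. miR159a was most like miR159b-3p (r = 0.957), then miR319b (0.838), miR159c (0.687) and miR319a (0.592), and unlike miR159b-5p (0.112) and miR319c (−0.23). Among 253 other miRNA bins the most like miR159a were miR168a-3p (0.869), miR5663-5p (0.859), miR171b-3p (0.857), miR171c-3p (0.848) and the bin of both arms of miR160c (0.843). For miR319a they were miR5652 (0.890), miR163 (0.868), miR165b (0.867), the bin shared by miR2934-3p and miR782 (0.842) and miR8174 (0.834). All points share library depth, the 2 sets and the low ntp4-1 levels.

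The target genes were looked at for small RNA of their own. Sites were found by a search of each spliced transcript in the TAIR10.1 annotation for the best ungapped match, and 3 are shown for the textbook targets, 5′ to 3′, with capitals for positions that do not form a Watson-Crick pair with the miRNA.
MYB33, for miR159a: uGgagcucccuucaUuccaaU
DUO1, for miR159a: uGgagcuccAuucGauccaaa
TCP4, for miR319a: GAggGgUCcccuucaguccaG
The MYB33 site was at 5:1839579-1839599 on the plus strand, the DUO1 site at 3:22343375-22343395 on the minus strand and the TCP4 site at 3:5063300-5063320 on the plus strand, all in coding sequence. The sites of the other MYB-type targets on the list (MYB65, MYB81, MYB97, MYB101, MYB104 and MYB120) and of TCP2, TCP3, TCP10 and TCP24 were also coding, while that of the oligopeptide transporter gene OPT1 lay outside the coding sequence.

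Hardly any small RNA was listed at these genes. Of 9 miR159 targets, 1 (OPT1) had a bin, and of 5 miR319 targets, 4 (TCP2, TCP3, TCP4 and TCP10) had bins, 20 in all. The 3 related TCP genes without a miR319 site, TCP5, TCP13 and TCP17, had 0. None of these bins reached a mean of 1 RPM, so none entered the test with that filter. TCP3 had the most, with 2.43, 2.61 and 3.52 RPM over its 9 bins in Col-0 and 0.527, 1.22 and 1.10 RPM in ntp4-1, which did not overlap. TCP3 had 2.67 to 4.35 RPM in heso1-1 and 2.72 to 5.68 RPM in urt1-1, across the Col-0 values. TCP4 had 2.16 to 2.81 RPM in Col-0 and 0.263 to 1.42 RPM in ntp4-1, also without overlap. In this comparison 28.6% of all bins tested lay below every Col-0 library. That share is of single bins with a mean of at least 1 RPM, unlike these sums over bins below that level. TCP2 and TCP10 overlapped between Col-0 and ntp4-1, at 0.402 to 1.26 against 0 to 0.914 RPM and 0.0899 to 1.10 against 0 to 0.548 RPM. Levels of the target mRNAs were not analysed here.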

How the data were processed

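Small RNA of 12 libraries was used. The authors deposited RPM (reads scaled to a fixed library total) per 100 bp bin in 1 table. The sources used here do not give the aligner, the build or the placement of reads with several matches (not stated per the labels). The NEBNext kit and TRIzol are named per the labels' protocols. No other columns of values were present (0). Whole reads were recovered in 11 libraries (100% of values within 1e-06), not in Col-0 replicate 3, which the tests on reads leave out.

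Each mutant was compared with Col-0 by limma 3.58.1 (R 4.3.3), with trend, on log2(RPM + 0.5) over all bins whose mean in the 6 libraries was 1 RPM or more. Alternatives were trimmed-mean scaling, pseudocounts of 0.1 and 1, no filter or a mean of 5 RPM, 12 libraries, a replicate block, each library left out, edgeR 4.0.16 and DESeq2 1.42.0. Scripts were tested on simulated data. The labels number biological replicates without saying what a number shares. Deviations of same-numbered libraries from their group means correlated at 0.549, 0.240 and 0.177 in heso1-1 and at 0.650, 0.381 and 0.326 in ntp4-1, all over 0.1, so those numbers were taken as pairs, but in urt1-1 the third was −0.277. Replicates 2 and 3 correlated about as strongly across numbers (0.236 and 0.215 in heso1-1, 0.382 and 0.337 in ntp4-1), so the numbers 2 and 3 were not set apart by this check. The named bins are all those that hold a miR159 or miR319 name and the other bins of their 6 genes, with the 5 most similar miRNA bins each. Members and lists were chosen with earlier results of these data known, and the set term and the family ratio were added after seeing the data. The replicate numbers and the spread between libraries, not read counts, set the errors given.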

Additional observations from a re-analysis of the deposited data

How the results depend on the processing

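No miR159 or miR319 bin was called without a block or set term in the 6-library fits, by edgeR or by DESeq2, and the calls that appeared came from the replicate block, the set term, the fit on 12 libraries or leaving out ntp4-1 replicate 1. Over all alternatives the log2 difference in ntp4-1 stayed below 0 for miR319a (−2.45 to −1.33), miR319c (−3.15 to −1.20) and miR159a (−1.74 to −0.35). Of the log2 differences tried again, 339 kept direction and call, 17 became called and 46 changed sign. The depth of the 5p arm, 6 to 73 reads, limits the arm ratio, and 3 libraries a group limit all tests.

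Bins called in heso1-1 (23) numbered 12 with a pseudocount of 0.1, 47 without a filter, 5 at a mean of 5 RPM, 0 with edgeR (1470 at an unadjusted p under 0.05) and 114 with DESeq2, and 12 to 30 with 1 library left out, 13 without Col-0 replicate 2 and 12 without replicate 3. In urt1-1 (78) they numbered 119 with trimmed-mean scaling, 46 with a pseudocount of 0.1, 14 at 5 RPM, 1 with edgeR, 215 with DESeq2, 1696 with the set term and 21 to 123 with 1 library left out: 28 and 21 without Col-0 replicates 2 and 3, and 24, 123 and 45 without urt1-1 replicates 1, 2 and 3. In ntp4-1 (30) they numbered 2 with a pseudocount of 0.1, 6 at 5 RPM, 652 in the fit on 12 libraries, 0 with edgeR (2268 at an unadjusted p under 0.05), 195 with DESeq2, 13075 with the set term, 2924 without ntp4-1 replicate 1, 14 without Col-0 replicate 1 and 0 without any other library.

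With the replicate block the counts were 14 in heso1-1, 237 in urt1-1 (whose numbers did not pair) and 10933 in ntp4-1. For arm ratios they were 0 in heso1-1 and 16 in ntp4-1, and for family ratios 1 in ntp4-1, and the block changed no member's call in heso1-1 or urt1-1. Arm ratios called in heso1-1 (1) were 0 with a pseudocount of 0.1, without a filter and in 5 of 6 fits with a library left out, range 0 to 1. In ntp4-1 (4) they were 2 without a filter, 16 with the set term and 0 to 14 with a library left out: 14 without ntp4-1 replicate 1, 2 without replicate 2 and 0 without any Col-0 library. The set term gave 3 arm ratios in urt1-1 and 2 family ratios in ntp4-1. The cause of these differences was not tested.

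Signs turned on whole reads, to 0.23 (edgeR) and 0.21 (DESeq2) for miR159b-5p in heso1-1, 0.20 and 0.19 for it in urt1-1 and 1.36 and 1.40 in ntp4-1, and to 0.076 and 0.13 for miR159b-3p in ntp4-1. In urt1-1 they turned to 0.53 and 0.53 for miR159a, 0.62 and 0.62 for miR159b-3p and 0.0079 and 0.019 for miR319b. Trimmed-mean scaling gave 0.23 for miR159a and 0.29 for miR159b-3p in urt1-1 and 0.46 for miR159b-5p in ntp4-1, where a pseudocount of 1 gave 0.058. The set term gave 0.40 (miR159a), 0.48 (miR159b-3p) and 0.085 (miR319b) in urt1-1. With a library left out, ranges that cross 0 were −0.71 to 0.10 (miR159b-5p), −0.11 to 0.81 (miR159b-3p), −0.46 to 0.081 (miR319a), −0.50 to 0.82 (miR319b) and −0.045 to 0.11 (miR159a to miR159b-3p) in heso1-1. In urt1-1 they were −0.82 to 0.52 (miR159a), −0.75 to 0.54 (miR159b-3p), −0.67 to 1.31 (miR159c) and −1.51 to 0.065 (miR319b). In ntp4-1 they were −0.58 to 1.13 (miR159b-5p), −0.24 to 2.07 (miR159c) and −1.59 to 0.15 (miR319b).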
